A study of Homo sapiens with 18 samples.

Results

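The genes described here encode the enzymes that make purine and pyrimidine nucleotides anew, those that recover bases and nucleosides by salvage, and the kinases and reductases that turn the products into the building blocks of RNA and DNA. The set held 40 listed genes, of which 38 were measured, among 19775 genes with a probe set on the array. Each gene was read from the probe set annotated to it alone with the highest mean log2(intensity + 1). The probe sets of UCK2 list a second symbol as well and were not used, and NME7 was not analysed here. Of the 38 genes, 14 belong to de novo synthesis and 8 to salvage, and the others supply precursors or serve both routes.

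Expression was measured in SKOV-3 cells, an established human ovarian carcinoma line, on 18 Affymetrix U133 Plus2 arrays that fall into 6 groups of 3 independent replicates. LHR+ cells were transfected to express the luteinizing hormone receptor and received no hormone, the same cells were incubated with LH at 50 ng/ml for 1, 4, 8 or 20 h (LH1, LH4, LH8 and LH20), and LHR- cells were the control line, described as the parent line in one place of the methods and as mock-transfected elsewhere. The design asks which genes differ when the receptor is introduced and which follow its activation over time. Transfection and selection cannot be told apart from the receptor itself, and a single group of LHR+ cells without LH means that time in culture cannot be told apart from LH. All comparisons of an LH time with LHR+ cells, and LHR+/LHR-, use the same 3 LHR+ arrays, so their fold changes share that error.

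Purines are assembled stepwise on phosphoribosyl pyrophosphate (PRPP) to give inosine monophosphate, from which the AMP and GMP branches part. Pyrimidines are built as a free ring before PRPP is added, which gives UMP and then CTP. Salvage enzymes reattach bases to PRPP or phosphorylate nucleosides at a lower cost in energy, and proliferating carcinoma cells generally draw on both routes.

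Array medians were 46.9 to 57.9 intensity units, dim probe sets (under 16 units) made up 31.0% to 34.5% of each array, and 14 of 18 arrays lay nearest to an array of their own group. The LHCGR probe set stayed between 0.344 and 1.57 in LHR+ cells, against 0.383 to 0.978 in LHR- cells. It may lie outside the transfected cDNA and so checks nothing about the labels. Of 10 carcinoma markers, 7 rose and 1 fell in LH20 relative to LHR+ cells (MUC1 by 1.54, ERBB2 by 1.29, CLDN4 at -0.66), and none rose and 3 fell in LHR+ relative to LHR- cells (EPCAM at -1.51, CLDN4 at -1.17, KRT7 at -0.41). MSLN was dim in LHR+ cells, at 8.54, and just above the dim range in LHR- cells, at 17.8. The 6 measured leukocyte and endothelial markers did not exceed 28.5 on any array. Of 8 fibroblast markers, 5 rose and none fell in LH20 relative to LHR+ cells, and 1 rose and 5 fell in LHR+ relative to LHR- cells. At the same adjusted p under 0.1, 16% of all genes rose and 18% fell in LH20 relative to LHR+ cells. In LHR+ relative to LHR- cells 10.4% rose and 8.22% fell. Among genes brighter than the median gene these shares were 24.1% and 28.8%, and 15% and 11.5%. The summed intensities of the fibroblast markers were 19899 to 21731 in LH20 cells, 13537 to 14712 in LHR+ cells and 29308 to 30146 in LHR- cells. The brightest gene of the list averaged 15744, 12626 and 16907 in these groups, so each sum rests largely on 1 gene. The part of both lists in the results below was not tested. In bulk RNA, fewer cells of a kind and less RNA per cell cannot be told apart.

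RefSeq promoter windows of 300 bases around the annotated start (GRCh38.p14) were matched for 37 of the 40 genes, not for ADSL, IMPDH2 and RRM2B. The 6 windows below belong to the 4 genes that changed by at least 2-fold, to RRM2, which was lower in both of the main comparisons, and to PPAT, which lies head to head with PAICS. They read 5′ to 3′ along the gene. Capitals mark CACGTG (an E-box), TGACG (part of the cyclic AMP response element TGACGTCA and counted also where it lies within it) and CCAAT, each on either strand, so that CGTCA and ATTGG are the same motifs on the other strand.
GART promoter, chr21:33542843-33543142, minus strand: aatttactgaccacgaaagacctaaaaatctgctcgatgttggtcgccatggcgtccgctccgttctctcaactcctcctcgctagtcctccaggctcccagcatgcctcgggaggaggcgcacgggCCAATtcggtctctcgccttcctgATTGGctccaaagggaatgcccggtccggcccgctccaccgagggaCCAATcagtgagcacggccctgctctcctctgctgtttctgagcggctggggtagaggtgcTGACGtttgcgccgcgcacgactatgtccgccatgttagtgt
PPAT promoter, chr4:56435566-56435865, minus strand: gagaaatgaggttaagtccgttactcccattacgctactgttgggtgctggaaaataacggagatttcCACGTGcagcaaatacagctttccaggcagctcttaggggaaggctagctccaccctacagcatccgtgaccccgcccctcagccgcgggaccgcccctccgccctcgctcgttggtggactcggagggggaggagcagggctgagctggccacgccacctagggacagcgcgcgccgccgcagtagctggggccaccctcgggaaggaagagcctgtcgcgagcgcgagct
CTPS1 promoter, chr1:40979446-40979745, plus strand: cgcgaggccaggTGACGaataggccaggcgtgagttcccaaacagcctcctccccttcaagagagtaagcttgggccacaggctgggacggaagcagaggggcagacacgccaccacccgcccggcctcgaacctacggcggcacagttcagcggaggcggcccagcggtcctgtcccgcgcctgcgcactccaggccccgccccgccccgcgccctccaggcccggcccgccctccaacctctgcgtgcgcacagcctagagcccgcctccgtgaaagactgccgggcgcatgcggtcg
RRM2 promoter, chr2:10122489-10122788, plus strand: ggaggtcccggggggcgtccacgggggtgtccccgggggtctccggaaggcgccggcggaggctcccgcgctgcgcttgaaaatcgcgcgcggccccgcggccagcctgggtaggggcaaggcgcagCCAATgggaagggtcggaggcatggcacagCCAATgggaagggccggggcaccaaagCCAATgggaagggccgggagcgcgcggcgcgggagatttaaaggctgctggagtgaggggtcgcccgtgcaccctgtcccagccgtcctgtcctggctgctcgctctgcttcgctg
UPP1 promoter, chr7:48089004-48089303, plus strand: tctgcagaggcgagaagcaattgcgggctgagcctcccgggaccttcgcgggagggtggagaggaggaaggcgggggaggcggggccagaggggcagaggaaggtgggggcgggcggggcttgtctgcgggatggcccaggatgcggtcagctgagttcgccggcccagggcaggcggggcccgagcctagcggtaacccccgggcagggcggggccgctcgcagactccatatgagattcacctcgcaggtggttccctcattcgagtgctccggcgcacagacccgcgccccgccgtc
NME4 promoter, chr16:396949-397248, plus strand: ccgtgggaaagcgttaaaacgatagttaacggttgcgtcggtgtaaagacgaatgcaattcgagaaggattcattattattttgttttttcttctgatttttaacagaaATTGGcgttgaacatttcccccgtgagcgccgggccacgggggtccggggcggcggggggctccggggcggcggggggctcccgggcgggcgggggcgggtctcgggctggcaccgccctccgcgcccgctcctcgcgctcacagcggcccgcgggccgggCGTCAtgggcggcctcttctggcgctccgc
The GART window holds CCAAT at 3 places and TGACG at 1, the RRM2 window CCAAT at 3, the CTPS1 window TGACG at 1, the NME4 window 1 of each, the PPAT window CACGTG at 1, and the UPP1 window none of them. CACGTG occurs in 9 of the 54 windows of the set and in 7.26% of all 35116 windows. Counted by gene, it occurs in 8 of 37 members and in 8.77% of all genes with a window. The full element TGACGTCA occurs in 2 of 54 windows (those of GUK1 and UMPS) against 1.85% of all windows. TGACG occurs in 12 of 54 against 24.6%, and CCAAT in 18 of 54 against 34.6%. One PAICS window shares 236 bases with the PPAT window, and their start sites lie 137 bases apart on opposite strands. The shared bases hold the CACGTG of PPAT, so this site is counted for both genes. A match describes the letters only, and the motifs were chosen with expression results known.

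In LHR+ cells the genes of nucleotide metabolism were more often higher than lower relative to LHR- cells. At a Benjamini-Hochberg adjusted p under 0.1 in limma, fitted over all 19775 genes and referred to below as passing, 13 members were higher and 3 lower, 42.1% together, whereas 18.6% of all genes passed, 10.4% higher and 8.22% lower. Since 37 of the 38 members were brighter than the median gene, the shares among genes brighter than the median, 15% higher and 11.5% lower (26.6% together), are the closer background, against 34.2% and 7.89% of the members. Of the 14 de novo genes 4 rose and none fell, and of the 8 salvage genes 4 rose and 1 fell. A single member, NME4, met the stricter criteria of a 2-fold change with all 3 arrays of one group above the other, which 2.57% of all genes met upward.

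The 3 largest rises by fold were in kinases, with CAD, described after them, next to AK4 in size. NME4, a mitochondrial nucleoside diphosphate kinase (chr16:396729-400754), had 410, 467 and 426 intensity units in LHR+ cells, against 62.9, 87.4 and 102 in LHR- cells. Every LHR+ array lay far above every LHR- array, with a log2 fold change of 2.38 ± 0.15 (SE; limma adjusted p = 1.46e-07), a 5.21-fold difference. NME4 has a single probe set, whose _s_at ending marks probes that may bind related transcripts. Fold changes here and below are on the log2(intensity + 1) scale. NME3, another nucleoside diphosphate kinase, had 367, 410 and 390 units in LHR+ cells, against 258, 184 and 260 in LHR- cells. Its groups were separate too (0.75 ± 0.18, adjusted p = 0.0134, limma). AK4, an adenylate kinase of the mitochondrial matrix, had 5275, 5772 and 5530 units in LHR+ cells, against 3326, 3667 and 3584 in LHR- cells (0.65 ± 0.09, adjusted p = 0.000208, limma). All 4 AK4 probe sets were higher in LHR+ cells, by 0.65, 0.84, 0.89 and 1.13.

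**Figure D1:**
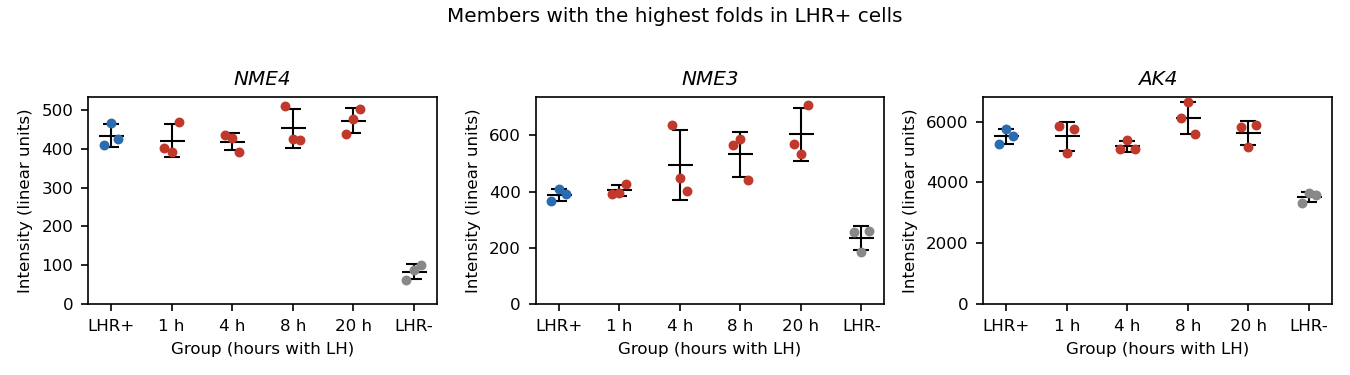
Intensity (linear units) of NME4, NME3 and AK4 on each array by group, with LHR+ cells and the LH times from left to right and LHR- cells last. Points are arrays and bars are the mean and SD of 3, and the LHR- arrays of all 3 genes lie below every LHR+ array (62.9 to 102 for NME4).

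Several enzymes of both routes rose as well. In the pyrimidine route these were CAD, which carries out the opening steps (0.65 ± 0.09), and CTPS2, a CTP synthase (0.42 ± 0.07). In the purine route these were PPAT, the committed amidotransferase step (0.42 ± 0.09), and IMPDH2, which opens the GMP branch (0.43 ± 0.11). Among salvage enzymes, ADK, which phosphorylates adenosine, rose by 0.62 ± 0.10, HPRT1, which recovers hypoxanthine and guanine, by 0.51 ± 0.07, APRT, which recovers adenine, by 0.46 ± 0.14, and the mitochondrial thymidine kinase TK2 by 0.39 ± 0.10. NME1 and NME6 rose by 0.39 and 0.40. NME1 is closely related in sequence to its neighbor NME2, and whether its probe set also binds NME2 transcripts was not analysed here. Some of these rises depend on the probe set. The other PPAT sets gave 0.27, which did not pass, and -0.43 (adjusted p = 0.0978, limma). The second sets of CTPS2 (0.19, adjusted p = 0.368), CAD (0.15, 0.828), HPRT1 (0.14, 0.947) and ADK (0.62, 0.161) did not pass, those of CAD and HPRT1 at averages of only 42.0 and 2.43 units in LHR+ cells. With the mean of all probe sets CAD (0.40, adjusted p = 0.13), HPRT1 (0.32, 0.696) and PPAT (0.08, 0.667) did not pass. APRT missed without LHR- replicate 3 or LHR+ replicate 1 or 3 (adjusted p = 0.152, 0.119 and 0.144), and NME6 without LHR- replicate 2 or 3 or LHR+ replicate 3 (0.189, 0.111 and 0.194).

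The 3 members that fell in LHR+ cells all serve deoxynucleotide supply. RRM2, the regulated small subunit of ribonucleotide reductase, had 2125, 2195 and 1747 units in LHR+ cells, against 3777, 3460 and 3304 in LHR- cells. The groups did not overlap, and RRM2 fell by 0.80 ± 0.12 (adjusted p = 0.000616, limma), whereas RRM1, the large subunit, differed by -0.05 ± 0.09 and TYMS, which makes thymidylate, did not pass either (adjusted p = 0.983). The second RRM2 probe set fell by 0.51. DTYMK, thymidylate kinase, had 3185, 3718 and 3294 units in LHR+ cells, against 4135, 5122 and 3874 in LHR- cells (-0.36 ± 0.12, adjusted p = 0.0726, limma). DCK, deoxycytidine kinase, had 2265, 2150 and 2283 units in LHR+ cells, against 2901, 3027 and 2537 in LHR- cells (-0.33 ± 0.09, adjusted p = 0.0247, limma). Both were separate between the groups, but the DTYMK difference no longer passed without LHR- replicate 1 or 2 or LHR+ replicate 1 or 3 (adjusted p = 0.103, 0.271, 0.206 and 0.176) or on its second probe set (-0.19, adjusted p = 0.186). Of 18 S-phase genes, a list of replication factors, 1 rose and 3 fell in the same comparison, with MCM6 at 0.42, CDC45 at -0.81 and MCM5 at -0.64. These are 5.56% and 16.7% of the list, against 10.4% and 8.22% of all genes and 15% and 11.5% of bright ones. The part of the S-phase genes in the RRM2 and DTYMK values was not tested. With only the arrays of LHR+ and LHR- cells in the fit, 9 members passed, 8 upward and 1 downward.

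After 1 h with LH no member passed in limma, where 0.865% of all genes did. At an unadjusted p under 0.05 the count was also 0, against 7.03% of all genes. Fold changes of the 38 members ran between -0.22 for NME6 and 0.18 for RRM2, with a median SE of 0.09.

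After 4 h, 1 member rose and 3 fell, against 4.9% of all genes upward and 5.97% downward, so the share of members was near the background of 10.9%. CTPS1, a CTP synthase (chr1:40979696-41012565), had 2713, 2668 and 2567 units in LH4 cells, against 1839, 2013 and 1921 in LHR+ cells. Its arrays were separate, and the rise of 0.46 ± 0.09 (adjusted p = 0.00643, limma) passed without any single array. UPP1, uridine phosphorylase (chr7:48088704-48108736), which cleaves uridine for salvage or breakdown, had 590, 384 and 389 units in LH4 cells, against 683, 805 and 657 in LHR+ cells (-0.68 ± 0.20, adjusted p = 0.0565, limma). TK1, the cytosolic thymidine kinase of S phase, had 246, 197 and 179 units in LH4 cells, against 257, 364 and 302 in LHR+ cells (-0.57 ± 0.18, adjusted p = 0.0783, limma). NME6 had 155, 130 and 124 units in LH4 cells, against 178, 170 and 210 in LHR+ cells (-0.44 ± 0.13, adjusted p = 0.0479, limma).

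All LH4 arrays of UPP1, TK1 and NME6 were below the LHR+ arrays, yet none of these 3 falls passed without LH4 replicate 2 (adjusted p = 0.202, 0.202 and 0.15) or without LH4 replicate 3 (0.190, 0.250 and 0.169). UPP1 also missed without LHR+ replicate 1 or 2 (0.108 and 0.191), TK1 without LHR+ replicate 2 or 3 or LH1 replicate 1 (0.272, 0.166 and 0.101), and NME6 without LHR+ replicate 3 (0.189). The second TK1 probe set differed by -0.03. The number of members that passed ranged between 1 and 10 over the other ways of fitting.

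GART, which catalyzes several steps of purine synthesis (chr21:33503931-33542893), gave different answers at 4 h by probe set. On the brightest it had 2087, 2214 and 2334 units in LH4 cells, against 1551, 1139 and 1571 in LHR+ cells, without overlap, but the difference of 0.65 ± 0.28 did not pass (adjusted p = 0.206, limma). On the second brightest it had 996, 1088 and 949 units in LH4 cells, against 1468, 1305 and 1289 in LHR+ cells, a fall of 0.42 ± 0.08 (adjusted p = 0.00737 over all probe sets of a single gene). The next in brightness fell by 0.45 ± 0.10 as well. A set with lower signal, at 57.5, 70.3 and 72.2 units in LHR+ cells, rose by 0.96 ± 0.26 (adjusted p = 0.0464, limma). RRM2 also differed by probe set, with 0.31 ± 0.12 on the brightest, which did not pass, and a fall by 0.66 ± 0.11 on the other (adjusted p = 0.00296, limma). The values of GART and RRM2 at 4 h thus have no settled direction, and where the probe sets lie in their transcripts was not analysed here.

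**Figure D2:**
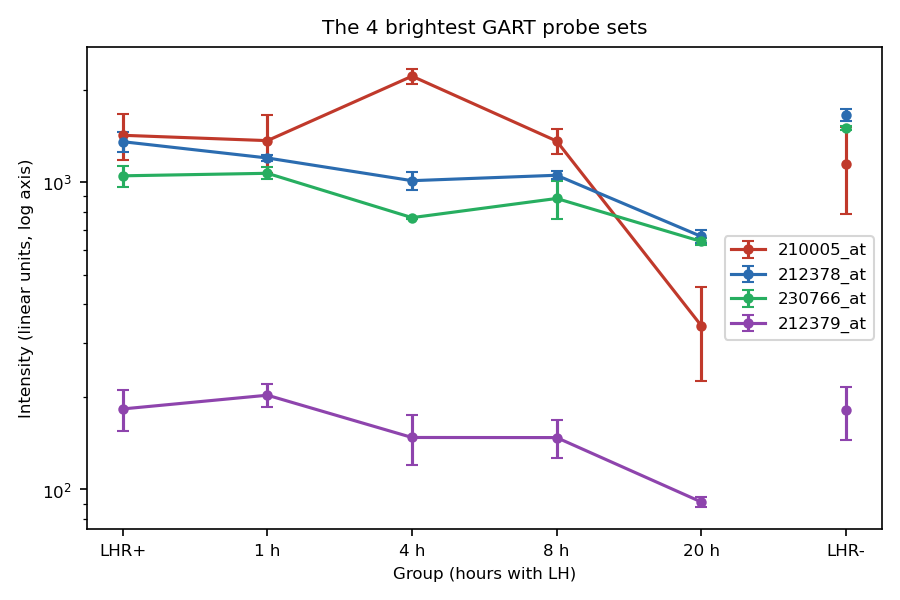
Mean intensity (linear units, log axis) of the 4 brightest GART probe sets in LHR+ cells without LH, in LHR+ cells after 1, 4, 8 and 20 h with LH, and, unconnected at the right, in LHR- cells. Bars are the SD of 3 arrays, and the brightest set is highest at 4 h (2212 on average) while the second brightest is below its LHR+ level there (1011 against 1354), but all 4 are lowest at 20 h.

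After 8 h again 1 member rose and 3 fell, with 10.9% of all genes passing in either direction (5.19% upward, 5.73% downward). PRPS1, a PRPP synthetase, had 1816, 1759 and 1656 units in LH8 cells, against 1339, 1523 and 1351 in LHR+ cells (0.31 ± 0.09, adjusted p = 0.044, limma). UPP1 had 453, 488 and 357 units in LH8 cells, against 683, 805 and 657 in LHR+ cells (-0.73 ± 0.20, adjusted p = 0.0422, limma). All arrays of the 2 groups were separate for both genes. DTYMK had 2373, 2577 and 2075 units in LH8 cells, against 3185, 3718 and 3294 in LHR+ cells (-0.54 ± 0.12, adjusted p = 0.016, limma). TK2 had 1788, 1899 and 1606 units in LH8 cells, against 2232, 2384 and 2125 in LHR+ cells (-0.35 ± 0.10, adjusted p = 0.0486, limma).

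The DTYMK fall at 8 h passed without any single array. PRPS1 missed without LHR+ replicate 1 or 3 or LH8 replicate 1 or 2 (adjusted p = 0.15, 0.141, 0.136 and 0.116), UPP1 without LHR+ replicate 2 or LH8 replicate 3 (0.139 and 0.145), and TK2 without LHR+ replicate 1 or 2 or LH8 replicate 3 (0.117, 0.155 and 0.162). With LH8 and LHR+ arrays alone in the fit no member passed.

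After 20 h the set turned down. Of the 38 members 20 fell and 2 rose, 52.6% and 5.26%, where 34% of all genes passed, 18% downward and 16% upward. Among genes brighter than the median gene 28.8% fell and 24.1% rose, so the members passed about as often as other bright genes (57.9% of members, 52.9% of bright genes) but leaned to the lower side. The median log2 fold change of the members was -0.28, against -0.0041 over all genes. LH20 cells had the lowest of the 6 group means for 16 of the 38 members and for 25.8% of all genes. GART, CTPS1 and UPP1, 3 of the members, fell by at least 2-fold with separate arrays, as did 3.88% of all genes. These calls held without any single array, but with the mean of all probe sets GART fell by 0.92, under 2-fold.

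GART had 391, 424 and 209 units in LH20 cells on its brightest probe set, against 1551, 1139 and 1571 in LHR+ cells. The highest LH20 array lay well below the lowest LHR+ array, with a log2 fold change of -2.10 ± 0.28 (adjusted p = 6.39e-05, limma), which is 4.30-fold lower. Among its 9 probe sets all 9 were below 0 at 20 h and 6 passed. The second brightest had 647, 702 and 649 units in LH20 cells, against 1468, 1305 and 1289 in LHR+ cells, a smaller fall by 1.02 ± 0.08. The sign at 20 h was thus shared by the probe sets, while the size ranged over -0.28 to -2.10. The -0.28 came from a set that was dim in LHR+ cells, at 14.2, 11.4 and 14.3 units. Its LH20 arrays, at 25.0, 8.57 and 5.48 units, overlapped these, so this set settles no direction.

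CTPS1 had 720, 622 and 584 units in LH20 cells, against 1839, 2013 and 1921 in LHR+ cells. The groups were far apart and CTPS1 fell by 1.59 ± 0.09 (adjusted p = 4.98e-08, limma), which left 0.333 of the LHR+ level. The change came between 8 and 20 h, since LH8 cells had 2165, 2244 and 1901 units and CTPS1 fell by 1.71 ± 0.09 in LH20 cells relative to LH8 cells (adjusted p = 9.05e-08, limma). CTPS2, the other CTP synthase, had 1921, 2173 and 2047 units in LH20 cells, against 2165, 2259 and 2024 in LHR+ cells, and differed by -0.07 ± 0.07.

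UPP1 had 323, 223 and 313 units in LH20 cells, against 683, 805 and 657 in LHR+ cells. No array of the 2 groups overlapped, and UPP1 fell by 1.33 ± 0.20 (adjusted p = 0.000198, limma), which is 2.51-fold lower. Unlike GART and CTPS1 on their brightest probe sets, UPP1 had lower means than LHR+ cells at each LH time after 1 h, at 454 ± 117 at 4 h, 433 ± 67.8 at 8 h and 287 ± 54.9 at 20 h (SD, n = 3 each). In LHR- cells it averaged 1002 ± 80.4, above the 715 ± 79.3 of LHR+ cells, a difference of -0.49 ± 0.20 that did not pass (adjusted p = 0.137, limma).

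**Figure D3:**
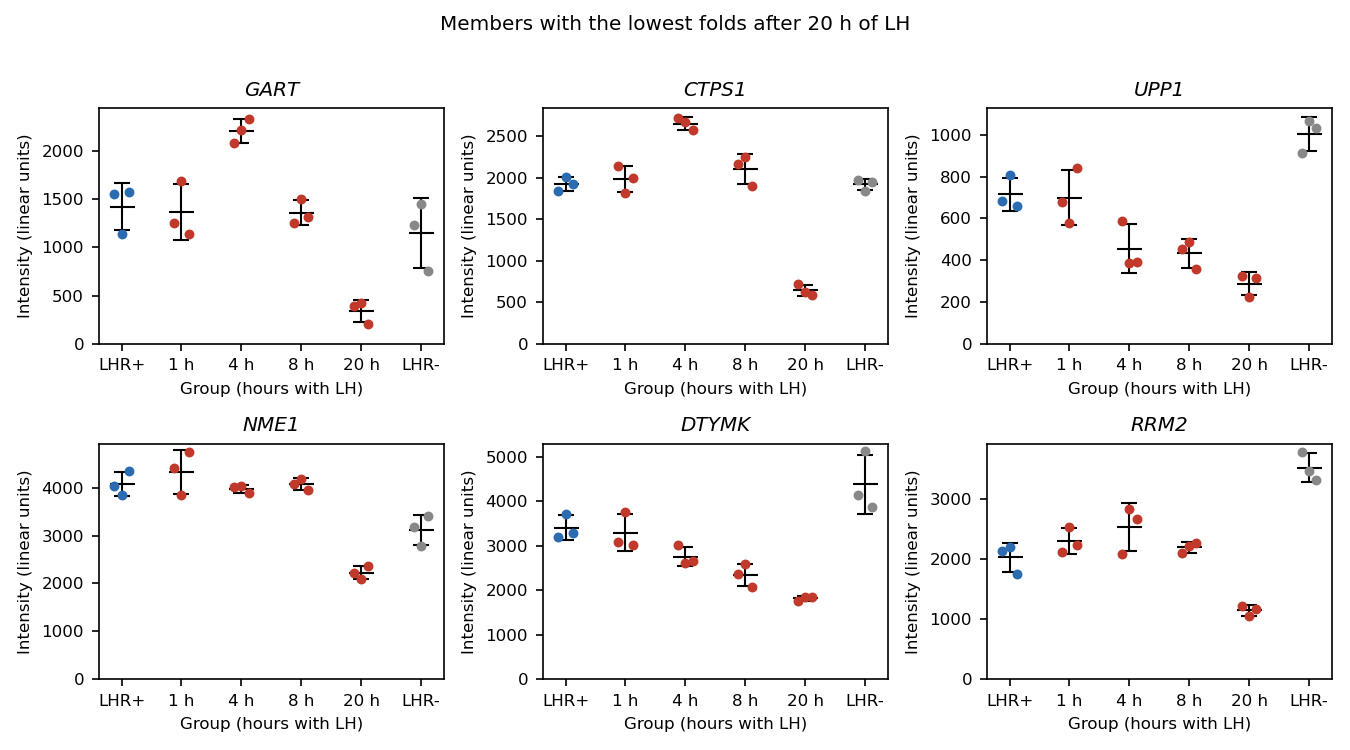
Intensity (linear units) of GART, CTPS1, UPP1, NME1, DTYMK and RRM2 on each array by group, with LHR+ cells and the LH times from left to right and LHR- cells last. Points are arrays and bars are the mean and SD of 3, and for all 6 genes every LH20 array lies below every LHR+ array (584 to 720 in LH20 cells for CTPS1).

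The other falls at 20 h were under 2-fold and lay along most of both routes. Beside the counts below, 18% of all genes and 28.8% of genes brighter than the median gene fell. In purine synthesis 5 of 6 genes fell, namely GART, ADSL (-0.51 ± 0.09), PFAS (-0.47 ± 0.09), ATIC (-0.43 ± 0.06) and PPAT (-0.25 ± 0.09), which carry the pathway between its committed step and inosine monophosphate. The sixth, PAICS, had 5539, 6117 and 6259 units in LH20 cells, against 5446, 6170 and 5317 in LHR+ cells, overlapping throughout (0.08 ± 0.11). PPAT had 2317, 2241 and 2642 units in LH20 cells, against 2771, 2784 and 3016 in LHR+ cells. PPAT was thus below the LHR+ arrays and PAICS, with which it shares promoter sequence, was not, but the difference between them was not tested. In the GMP branch IMPDH1 fell by 0.47 ± 0.17 with arrays that overlapped, IMPDH2 differed by -0.23 ± 0.11 and GMPS, which aminates XMP, by 0.15 ± 0.08. The other GMPS probe sets fell, by 0.24 and 0.56, so GMPS has no settled direction.

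Several of these falls rest on single arrays. PPAT missed without LHR+ replicate 3 or LH20 replicate 1 or 2 (adjusted p = 0.152, 0.128 and 0.164), and IMPDH1 without LHR+ replicate 2 or 3 or LH20 replicate 1 (0.211, 0.104 and 0.227). DHODH, a pyrimidine gene described next, missed without LHR+ replicate 2 or 3 or LH20 replicate 1 or 3 (0.192, 0.117, 0.275 and 0.128).

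Against 18% of all genes and 28.8% of genes brighter than the median gene, 4 of 5 genes of pyrimidine synthesis fell. Besides CTPS1 these were DHODH, the mitochondrial dehydrogenase of the pathway (-0.52 ± 0.20, with overlapping arrays), CAD (-0.33 ± 0.09) and UMPS, which forms UMP (-0.31 ± 0.08, on a probe set whose _x_at ending marks probes that may bind other transcripts). CAD had 1541, 1697 and 1598 units in LH20 cells, against 2060, 2161 and 1860 in LHR+ cells and 1295, 1187 and 1399 in LHR- cells. Its LH20 arrays thus lay between the other groups. The suppliers did not pass, with PRPS1 at -0.05 ± 0.09, PRPS2, the other PRPP synthetase, at 0.00 ± 0.08 and MTHFD1, which makes the folate carrying the purine ring's one-carbon units, at -0.11 ± 0.11.

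Ribonucleotide reductase split by subunit at 20 h. RRM2 had 1212, 1045 and 1170 units in LH20 cells, against 2125, 2195 and 1747 in LHR+ cells, a fall by 0.82 ± 0.12 (adjusted p = 0.000209, limma). RRM1 had 3324, 3473 and 3416 units in LH20 cells, against 2483, 2457 and 2589 in LHR+ cells, a rise of 0.44 ± 0.09 (adjusted p = 0.00145, limma). Each gene's groups were separate, in opposite directions. The second RRM2 probe set fell by 1.35 ± 0.11, while the second RRM1 probe set differed by 0.17, which did not pass. RRM2B, the p53-inducible small subunit, differed by 0.10 ± 0.15, and TYMS fell by 0.32 ± 0.08. Of the 18 S-phase genes 1 rose (MCM3, 0.28) and 6 fell, with CDC6 at -0.75 and GINS1 at -0.59 and a median of -0.13 for the list. The share that fell was 33.3%, against 18% of all genes and 28.8% of genes brighter than the median gene. The summed intensity of the S-phase genes was 17836 to 18388 in LH20 cells, against 20422 to 22194 in LHR+ cells. Its part in the falls of RRM2, TYMS and DTYMK was not tested.

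In salvage 3 of 8 genes fell and none rose. The share that fell, 37.5%, was not far from the 28.8% of genes brighter than the median gene. Besides UPP1 these were HPRT1 and TK2 (-0.31 ± 0.10). HPRT1 had 2252, 2249 and 2004 units in LH20 cells, against 3219, 3269 and 3033 in LHR+ cells, and fell by 0.55 ± 0.07 (adjusted p = 4.2e-05, limma). The LHR- arrays of HPRT1, at 2330, 2289 and 2087 units, overlapped those of LH20 cells. APRT differed by -0.16 ± 0.14, ADK by -0.19 ± 0.10, TK1 by -0.32 ± 0.18, UCK1, a uridine-cytidine kinase, by -0.22 ± 0.25 and DCK by 0.05 ± 0.09, none of which passed. The TK2 fall missed without LHR+ replicate 2 or LH20 replicate 2 (adjusted p = 0.113 and 0.102). On their second probe sets, the falls at 20 h of HPRT1 (-0.44, adjusted p = 0.757), TK2 (-0.16, 0.378), CAD (-0.44, 0.321), TYMS (-0.53, 0.178) and PPAT (-0.26, 0.206) kept their sign but did not pass.

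Among the 9 measured nucleotide kinases 5 fell and 1 rose at 20 h. Of all genes 18% fell and 16% rose, and of genes brighter than the median gene 28.8% and 24.1%. DTYMK had 1758, 1840 and 1838 units in LH20 cells, against 3185, 3718 and 3294 in LHR+ cells (-0.90 ± 0.12, adjusted p = 8.52e-05, limma). NME1 had 2225, 2086 and 2369 units in LH20 cells, against 4043, 3843 and 4345 in LHR+ cells (-0.87 ± 0.09, adjusted p = 1.07e-05, limma). Both were separate from LHR+ cells, and NME1 was also below all LHR- arrays (3186, 2786 and 3401). GUK1, guanylate kinase, fell by 0.32 ± 0.07, NME6 by 0.38 ± 0.13 and AK1, the cytosolic adenylate kinase, by 0.22 ± 0.09. The AK1 direction rests on its probe set, since the second one was higher by 0.46 ± 0.16 in LH20 cells, and on the first the fall missed without LHR+ replicate 2 or 3 or LH20 replicate 1 (adjusted p = 0.264, 0.207 and 0.318), and also when any 1 of 9 arrays of other groups was left out. NME6 missed without LHR+ replicate 3 or LH20 replicate 3 (adjusted p = 0.153 and 0.140).

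NME3 was the kinase that rose, with 570, 532 and 709 units in LH20 cells, against 367, 410 and 390 in LHR+ cells (0.62 ± 0.18, adjusted p = 0.0196, limma). Its LH20 arrays were all above the LHR+ arrays, which were in turn above the LHR- arrays. NME4 and AK4 did not pass at 20 h, at 0.12 ± 0.15 and 0.03 ± 0.09, and CMPK1, UMP-CMP kinase, differed by 0.10 ± 0.07. One dimmer AK4 probe set fell by 0.34 (adjusted p = 0.0194, limma).

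**Figure D4:**
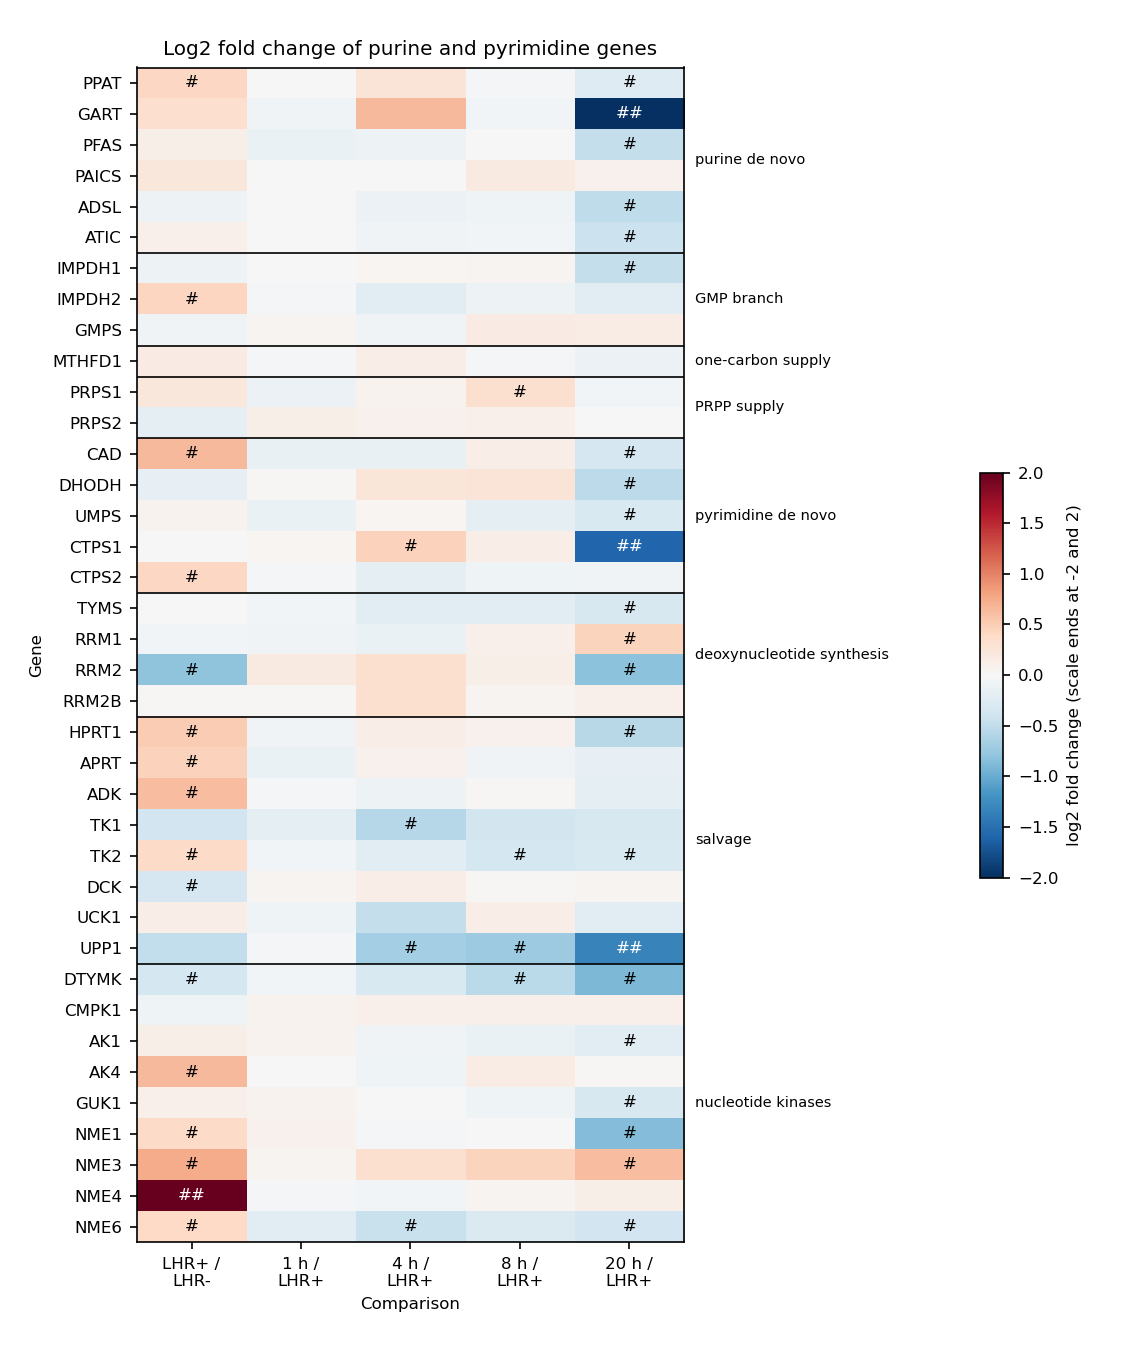
Log2 fold changes of the 38 measured genes (rows, grouped by pathway) in LHR+ against LHR- cells and in LHR+ cells after 1, 4, 8 and 20 h with LH against LHR+ cells without LH (columns). Colors end at -2 and 2, # marks genes with an adjusted p under 0.1 and ## those that also met the 2-fold criteria, and 20 of the marks at 20 h are on falls and 2 on rises.

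The steps between LH times placed most of the falls after 8 h, but DTYMK, UPP1 and TK2 had passed as lower at 8 h already. The second RRM2 probe set had 744, 692 and 720 units in LH8 cells, against 1340, 1224 and 1319 in LHR+ cells. In LH4 cells relative to LH1 cells, CTPS1 rose by 0.42 ± 0.09 and UPP1 fell by 0.63 ± 0.20, where 8.61% of all genes passed. In LH8 cells relative to LH4 cells, PPAT fell by 0.29 ± 0.09 and CTPS1 by 0.34 ± 0.09, where 8.05% did. The UPP1 step missed when any 1 of 12 arrays was left out, with the highest adjusted p of 0.301 without LH1 replicate 3, and the CTPS1 fall missed with any LH4 array left out or without LH8 replicate 1 or 3 (0.101 to 0.170). PPAT missed without LH4 replicate 1, 2 or 3 (adjusted p = 0.167, 0.132 and 0.214), without LH8 replicate 1 or 3 (0.168 and 0.219) and with the mean of all probe sets (0.108). In LH20 cells relative to LH8 cells 15 members fell and 1, RRM1, rose (0.33 ± 0.09), where 25.5% of all genes passed, 13.5% downward and 12.1% upward. Of the 15, GART and CTPS1 met the 2-fold criteria, as did 2.23% of all genes downward. GART fell by 2.05 ± 0.28 on its brightest probe set in that step, but by 0.66 ± 0.08 on the second brightest and by 0.62 with the mean of all sets, both under 2-fold. PRPS1 had 1352, 1380 and 1331 units in LH20 cells, against 1816, 1759 and 1656 in LH8 cells (-0.36 ± 0.09, adjusted p = 0.00876, limma), and overlapped the LHR+ arrays again. Between 8 and 20 h the RRM1 rise missed with equal array medians (adjusted p = 0.139, limma) and with the mean of all probe sets (0.288). It also missed on its second probe set (0.792). The DTYMK fall missed without LH8 replicate 1 or 2 or any LH20 array (0.102 to 0.180). Falls of UPP1, IMPDH1 and GUK1 missed without some single arrays of these groups. The steps share the arrays of the time between them.

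For de novo genes the median difference of LHR+ from LHR- cells was 0.11 on the log2 scale, and for salvage genes it was 0.26. In LH20 relative to LHR+ cells the medians were -0.38 for the 14 de novo genes, of which 10 fell, and -0.26 for the 8 salvage genes, of which 3 fell. Among genes brighter than the median gene 28.8% fell. As a description, the mean log2 level of the de novo genes minus that of the salvage genes was 0.232 to 0.394 on the LH20 arrays, against 0.406 to 0.460 on the LHR+ arrays. It was 0.561 to 0.807 on the LH4 arrays and 0.573 to 0.645 on the LH8 arrays, all above the LHR+ arrays, and 0.428 to 0.518 on the LH1 arrays. The LHR- arrays lay at 0.346 to 0.405. Only shifts between groups can be read from this mean difference, as probe sets differ in brightness, and single genes can move it. Median fold changes from LHR+ cells were -0.04 for de novo and -0.17 for salvage genes at 4 h. At 8 h they were -0.02 for both. The means include UPP1 (-0.73 at 8 h) and GART on its brightest probe set, whose direction at 4 h was not settled. Whether the routes differ was not tested.

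**Figure D5:**
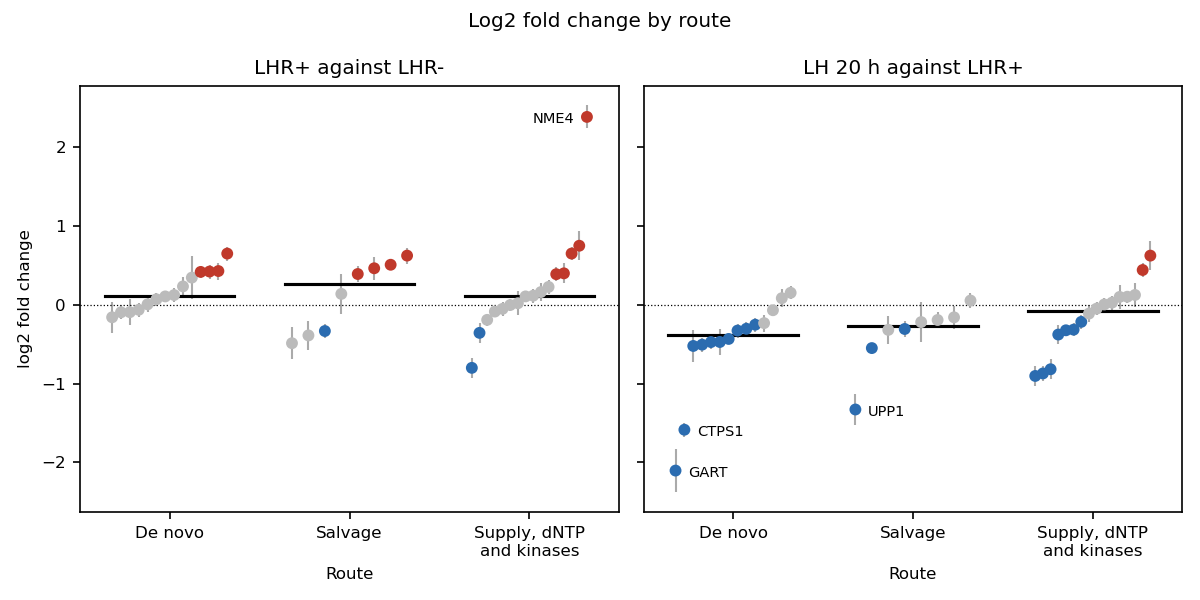
Log2 fold change of each gene in LHR+ against LHR- cells (left) and after 20 h with LH against LHR+ cells (right), by route, with bars for the SE. Red points rose and blue points fell at an adjusted p under 0.1, gray points did not pass, and the black line is the median of the route (-0.38 for de novo and -0.26 for salvage genes at 20 h).

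Other genes around the pathway, a list of 64 of which 55 were measured, had 11 rises and 9 falls at 20 h, 36.4% of the list against the 34% of all genes that passed. In LHR+ relative to LHR- cells 9 of them rose and 6 fell, 27.3% against 18.6% of all genes. The largest changes were in enzymes of breakdown. GDA, guanine deaminase, had 371 ± 29.4 units in LHR+ cells and 2351 ± 69.7 in LHR- cells (SD, n = 3 each) and fell by 2.66 ± 0.13. NT5E, the cell-surface nucleotidase that makes adenosine, fell to 136 ± 28.1 units in LH20 cells, against 1083 ± 115 in LHR+ cells, and was lower in LHR+ than in LHR- cells as well (-0.96 ± 0.19). PNP, purine nucleoside phosphorylase, had 1708 ± 11.5 units in LH20 cells and 946 ± 71.3 in LHR+ cells, a rise of 0.86 ± 0.08. Rises in LHR+ cells were largest for AMPD3, an AMP deaminase, and for the transporter SLC29A4 (0.93 ± 0.18). AMPD3 had 47.6 ± 16.4 units in LHR+ cells and 13.3 ± 13.4 in LHR- cells, where its mean was dim. At 20 h AK5 rose by 0.84 ± 0.30, and NME5 fell by 1.12 ± 0.38 from a level near the dim end of the array.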

How the data were processed

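RNA of 18 SKOV-3 cultures was amplified and hybridized by the authors, who deposited 1 intensity per probe set and array on a linear scale. Per the labels the probes were summarized with PLIER, but the methods mention RMA, and which of them made the values is not settled here. Version, background correction and scaling are not given in the sources used here. Of 54675 probe sets, 41097 list 1 gene symbol. Symbols were updated through the RefSeq gene table of GRCh38.p14. Values were taken as log2(intensity + 1) with no filter, and group means over 18 arrays were fitted jointly for 19775 genes (limma 3.58.1, lmFit then eBayes, under R 4.3.3). A gene passed with Benjamini-Hochberg adjusted p under 0.1, and was called with p under 0.05, adjusted p under 0.1, a fold of at least 2 and all 3 arrays of one group above the other. The methods name an analysis of variance and a rank test. An exact test of 3 against 3 arrays cannot give a two-sided p below 0.1, so the rank test was not run, and the unmoderated group comparison was run as an alternative to limma. On data simulated for LH20/LHR+, 42 of 50 genes altered by 1.5-fold and 50 of 50 altered by 2-fold passed. Of the 50 altered by 2-fold, 22 were called, and of 19575 unaltered genes 19 passed and 12 were called. The altered genes were few and all brighter than the median gene, whereas 34% of all genes passed in the real comparison. These rates therefore need not hold for the real arrays.

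Full values are given for members called in any comparison and for the 3 largest rises and falls that passed against LHR+ or LHR- cells, with others named in clauses. Of the other lists, the 2 largest rises and falls are named. Members, lists and motifs were chosen with earlier results of these data known. Alternatives covered the pseudocount, a brightness filter, array scaling, the probe set, the fit and single arrays left out, and single probe sets were fitted after the data had been seen. Figures were drawn with matplotlib 3.10.9. The number of arrays limits the precision.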

Additional observations from a re-analysis of the deposited data

How the results depend on the processing

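The counts of members passing or called at 20 h did not move by over 1.5 times under any alternative run, whereas counts at the intermediate times did. With the mean of all probe sets 3 members were again called at 20 h but shared 2 with the main calls, since GART fell by 0.92 and RRM2 by 1.08. At 4 h 4 members passed, and 10 did among genes above the median gene only, 7 by the unmoderated group comparison of the methods, 7 with a trended and robust eBayes, 2 at an adjusted p under 0.05 and 1 with only the arrays of the 2 groups compared. At 8 h 4 passed, and 2 did with equal array medians and 0 with only the 2 groups. For LHR+/LHR- 16 passed, and 9 did with only the 2 groups. The salvage median at 8 h was -0.02, and -0.25 with the mean of all probe sets. AK1 at 20 h reversed to 0.12 with the mean of all probe sets and to 0.46 on its second probe set, and HPRT1 in LH20 relative to LH8 cells to 0.61 on a dim second probe set. The cause of these changes was not tested.

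Leaving out 1 array at a time gave 13 to 17 members passing for LHR+/LHR-, 0 at 1 h, 1 to 6 at 4 h, 2 to 4 at 8 h and 17 to 23 at 20 h, and 1, 0, 0, 0 and 3 called. At 4 h the count was 2 without LHR+ replicate 2 or 3 and 1 without LH4 replicate 2 or 3, and at 8 h it was 2 without LHR+ replicate 1 or 2. De novo medians ranged over 0.08 to 0.15, -0.04 to 0.01, -0.11 to 0.01, -0.05 to 0.04 and -0.41 to -0.30, and salvage medians over 0.19 to 0.28, -0.09 to -0.01, -0.19 to -0.14, -0.07 to 0.00 and -0.26 to -0.22. Of 66 single-gene differences that passed, 54 to 66 still did without any 1 array.

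With the replicate number as a block 17, 0, 4, 4 and 22 members passed. The single difference that no longer passed was UPP1 in LH4 relative to LH1 cells (-0.63, adjusted p = 0.12, limma). Deviations of same-numbered arrays correlated between -0.23 and 0.39 (median 0.007), over 0.1 in 17 of 45 pairs. Those of other-numbered arrays correlated between -0.44 and 0.30 (median -0.02), over 0.1 in 19 of 90 pairs. Of 18 arrays, 9 correlated best with an array of their own number. Whether arrays of the same number share a batch was not tested.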

Other observations

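Within the list of other pathway genes, 4 of 7 nucleoside transporters rose in LHR+ relative to LHR- cells and none fell, where 10.4% of all genes rose and 8.22% fell. These were SLC29A1, SLC29A2, SLC29A3 and SLC29A4, and the other members, SLC28A1, SLC28A2 and SLC28A3, averaged under 16 units in both groups. At 20 h with LH 2 of the 7 rose and none fell, where 16% of all genes rose and 18% fell. Of 11 measured genes of folate one-carbon supply 1 rose and 2 fell in LHR+ relative to LHR- cells, and 2 rose and 2 fell at 20 h. Of 23 genes of breakdown, deamination and pool control 3 rose and 3 fell in LHR+ relative to LHR- cells, and 4 rose and 5 fell at 20 h. The counts for folate and breakdown genes at 20 h, 36.4% and 39.1%, were near the 34% of all genes that passed, and those in LHR+ cells were 27.3% and 26.1% against 18.6%. All counts are at an adjusted p under 0.1 in limma, as above.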
